A study of Mus musculus with 22 samples.

Results

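The microtubule genes described here are 9 rows of a table of 46297 genes: the alpha-tubulins Tuba1a, Tuba1b, Tuba1c and Tuba4a, the beta-tubulins Tubb2a, Tubb4b, Tubb5 and Tubb6, and Stmn1, which encodes stathmin. They were chosen by name after earlier results of these data had been seen, and Tubb6 was listed for its difference between tissues, so that difference is given without a test. All 9 passed the filter on low values (10 scaled counts or more in 2 or more libraries) and were among the 14327 genes tested.

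RNA was sequenced from sorted mouse P14 CD8+ T cells, which carry a transgenic T cell receptor, in 22 libraries that were wild type (WT) or lacked VHL. VHL is the ubiquitin ligase subunit that marks hypoxia-inducible factors (HIF) for degradation. On day 11, cells from tumors gave 3 VHL-deficient and 3 WT libraries. On day 7, cells from spleen, unsplit cells from tumors, and cells from tumors sorted as Trm or nonTrm gave 2 libraries per genotype each. The mice were C57BL/6 and 6 to 12 weeks old, and each biological replicate pooled 5 mice. How VHL was removed, the tumor, the markers of the Trm sort and the event counted as day 0 are unknown from the sources used here. Trm usually stands for tissue-resident memory T cells.

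Microtubules are polymers of dimers of 1 alpha- and 1 beta-tubulin. In T cells they move the centrosome and lytic granules toward a target cell, and in dividing cells they form the mitotic spindle. Tubulins are encoded by several genes per class, whose products, called isotypes, are very alike except in the tail that modifying enzymes act on. Stathmin binds free tubulin dimers and promotes the shrinking of microtubules, and mitotic kinases turn it off by phosphorylation. Cells also adjust tubulin messages to the amount of free dimer, through TTC5, which recognises newly made tubulin chains on the ribosome.

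The libraries held 3375558 to 10211060 reads, of which 26.9% to 45.7% fell on 1 ribosomal RNA row and 2.89% to 12.1% on mitochondrial genes. Vhl had 0 to 32 reads in the VHL-deficient libraries and 60 to 280 in the WT libraries. A list of 6 HIF target genes had 6 higher in VHL-deficient cells in day 11 tumor, unsplit day 7 tumor and Trm cells, and 5 in spleen and nonTrm cells. All 9 CD8 T cell markers were present in each group, while Mlana, Sox10, Csf1r and Adgre1 had at most 6.21 scaled counts in any library. Other genes of the melanoma and macrophage lists were higher: Pmel was at 16.2 to 96.1, Cd68 at 8.35 to 89.2, and Lyz2 reached 48.4 and Apoe 34.6. Libraries differed in how much of the signal came from long messages. The median log2 deviation of messages of at least 5000 bases minus that of messages of at most 1500 bases was lowest in nonTrm VHL-deficient replicate 2 (-1.36), Trm WT replicate 1 (-1.25), unsplit WT replicate 2 (-0.84) and nonTrm WT replicate 2 (-0.52). In the other 18 libraries this length score lay between -0.41 and 0.74. The genotype differences that rest on those 4 libraries are given with and without them.

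Levels are given as scaled counts, meaning the read count of a gene divided by 1 size factor per library, and comparisons between genes use scaled counts per kilobase of exonic sequence. Tubb5, a widely expressed beta-tubulin, was the most abundant member, with a mean over the 22 libraries of 2587 per kilobase. Tubb4b, another widely expressed beta-tubulin, followed with 712 per kilobase, then Tuba1b, a widely expressed alpha-tubulin, with 570 per kilobase. Tubb6, a divergent class V beta-tubulin, had 425 per kilobase. Tuba1c had 308, Tuba1a 288, Tuba4a 186, Stmn1 121 and Tubb2a 38.3 per kilobase. The members also differed in how far their level moved. The highest of the 10 group means was 1.86 times the lowest for Tuba4a and 2.21 times for Tuba1a. It was 5.55 times the lowest for Tubb4b, 7.25 times for Tubb5, 7.58 times for Tuba1c, 8.60 times for Tubb2a, 16.3 times for Tuba1b, 20.0 times for Stmn1 and 165 times for Tubb6. WT Trm cells had the highest mean of 7 members, the exceptions being Tubb2a (day 11 WT) and Tubb6 (Trm VHL-deficient).

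In the GENCODE M21 annotation of mm10, all 9 are protein-coding genes. Among them, 3 alpha-tubulins neighbour each other on chromosome 15: Tuba1b at chr15:98931425-98934565 and Tuba1a at chr15:98949837-98953703 on the minus strand, and Tuba1c at chr15:99029891-99038110 on the plus strand. Tuba4a lies at chr1:75214228-75219865 and overlaps Stk16. Tubb2a lies at chr13:34074274-34078007, Tubb4b at chr2:25222160-25224702, Tubb5 at chr17:35833921-35838306 and Stmn1 at chr4:134468320-134473843. How reads that match several genes, or both strands, were counted is unknown here. Of the 50-base words of the Tuba1a exons, 75.5% also occur in another annotated gene, as do 75.1% for Tuba1b and 52.7% for Tuba1c. The share was 49.6% for Tubb2a (mostly Tubb2b, which had 7 reads in all), 41.3% for Tubb4b (mostly the pseudogene Tubb4b-ps1), 35.4% for Tuba4a (mostly the overlapping Stk16) and 18.9% for Stmn1 (mostly the pseudogene Gm11223). It was 0.0892% for Tubb5 and 0 for Tubb6. The gene that shared most words was Tuba1c for Tuba1a and Tuba1b, and Tuba1b for Tuba1c. AC157548.1, which is not a member, held 46.6% of the Tuba1a and 51.5% of the Tuba1b words. The split of reads among Tuba1a, Tuba1b and Tuba1c is therefore less certain than the levels of Tubb5 and Tubb6.

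RefSeq promoters (GRCm38.p6) of 7 of the 9 members were searched on both strands from 250 bases before to 50 bases after the gene's start. The promoters of Tubb6 and Stmn1 were not searched, so whether they hold any of the motifs below was not tested. The 4 promoters shown here belong to the tubulins that fell in VHL-deficient relative to WT Trm cells. Each run is the 250 bases before the start, 5′ to 3′ along the gene. Capitals mark 3 motifs. CCAAT, which reads ATTGG when it lies on the other strand, is the box bound by NF-Y and common in cell cycle promoters. TTTGAA is the cell cycle homology region, and ACGTG is a form of the core that HIF and other bHLH factors bind.
Tubb5, chr17:35838302-35838551, minus strand: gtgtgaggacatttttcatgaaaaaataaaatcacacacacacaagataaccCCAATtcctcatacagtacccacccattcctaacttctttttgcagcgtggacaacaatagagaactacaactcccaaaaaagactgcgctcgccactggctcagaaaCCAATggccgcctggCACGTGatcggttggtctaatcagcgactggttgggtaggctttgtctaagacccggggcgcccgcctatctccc
Tubb4b, chr2:25224703-25224952, minus strand: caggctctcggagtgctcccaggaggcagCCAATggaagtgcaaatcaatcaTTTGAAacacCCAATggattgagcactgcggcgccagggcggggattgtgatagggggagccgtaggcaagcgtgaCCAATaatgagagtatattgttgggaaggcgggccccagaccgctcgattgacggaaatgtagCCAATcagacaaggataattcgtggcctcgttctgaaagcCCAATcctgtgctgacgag
Tuba1b, chr15:98934391-98934640, minus strand: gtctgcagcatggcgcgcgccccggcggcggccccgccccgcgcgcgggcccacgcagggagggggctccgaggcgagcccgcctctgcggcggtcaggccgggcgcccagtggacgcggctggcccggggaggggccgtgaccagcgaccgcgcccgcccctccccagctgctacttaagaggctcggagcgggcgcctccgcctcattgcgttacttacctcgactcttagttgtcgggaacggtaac
Tuba1c, chr15:99029641-99029890, plus strand: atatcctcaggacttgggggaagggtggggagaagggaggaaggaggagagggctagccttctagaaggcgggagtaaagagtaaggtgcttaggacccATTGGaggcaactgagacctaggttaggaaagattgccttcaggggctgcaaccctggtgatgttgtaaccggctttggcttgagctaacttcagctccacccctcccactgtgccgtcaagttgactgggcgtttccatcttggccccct
CCAAT occurred in 4 of the 7 promoters: 5 times in Tubb4b, 2 times in Tubb5, and once each in Tuba1a and Tuba1c. Of 32851 mouse promoters of the same length, 37.4% held it. Among the 7, TTTGAA occurred in Tubb4b alone (17.9% of promoters), and ACGTG in Tubb5 alone (19.6%), where CACGTG gives overlapping matches on both strands. Other forms of the HIF core were not searched. The Tuba1b, Tuba4a and Tubb2a windows held none of these 3 motifs. GGGCGG, the GC box bound by Sp1, occurred in 6 of the 7 promoters and in 35.7% of all. A match is a description of the letters and no measure of binding.

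**Figure D1:**
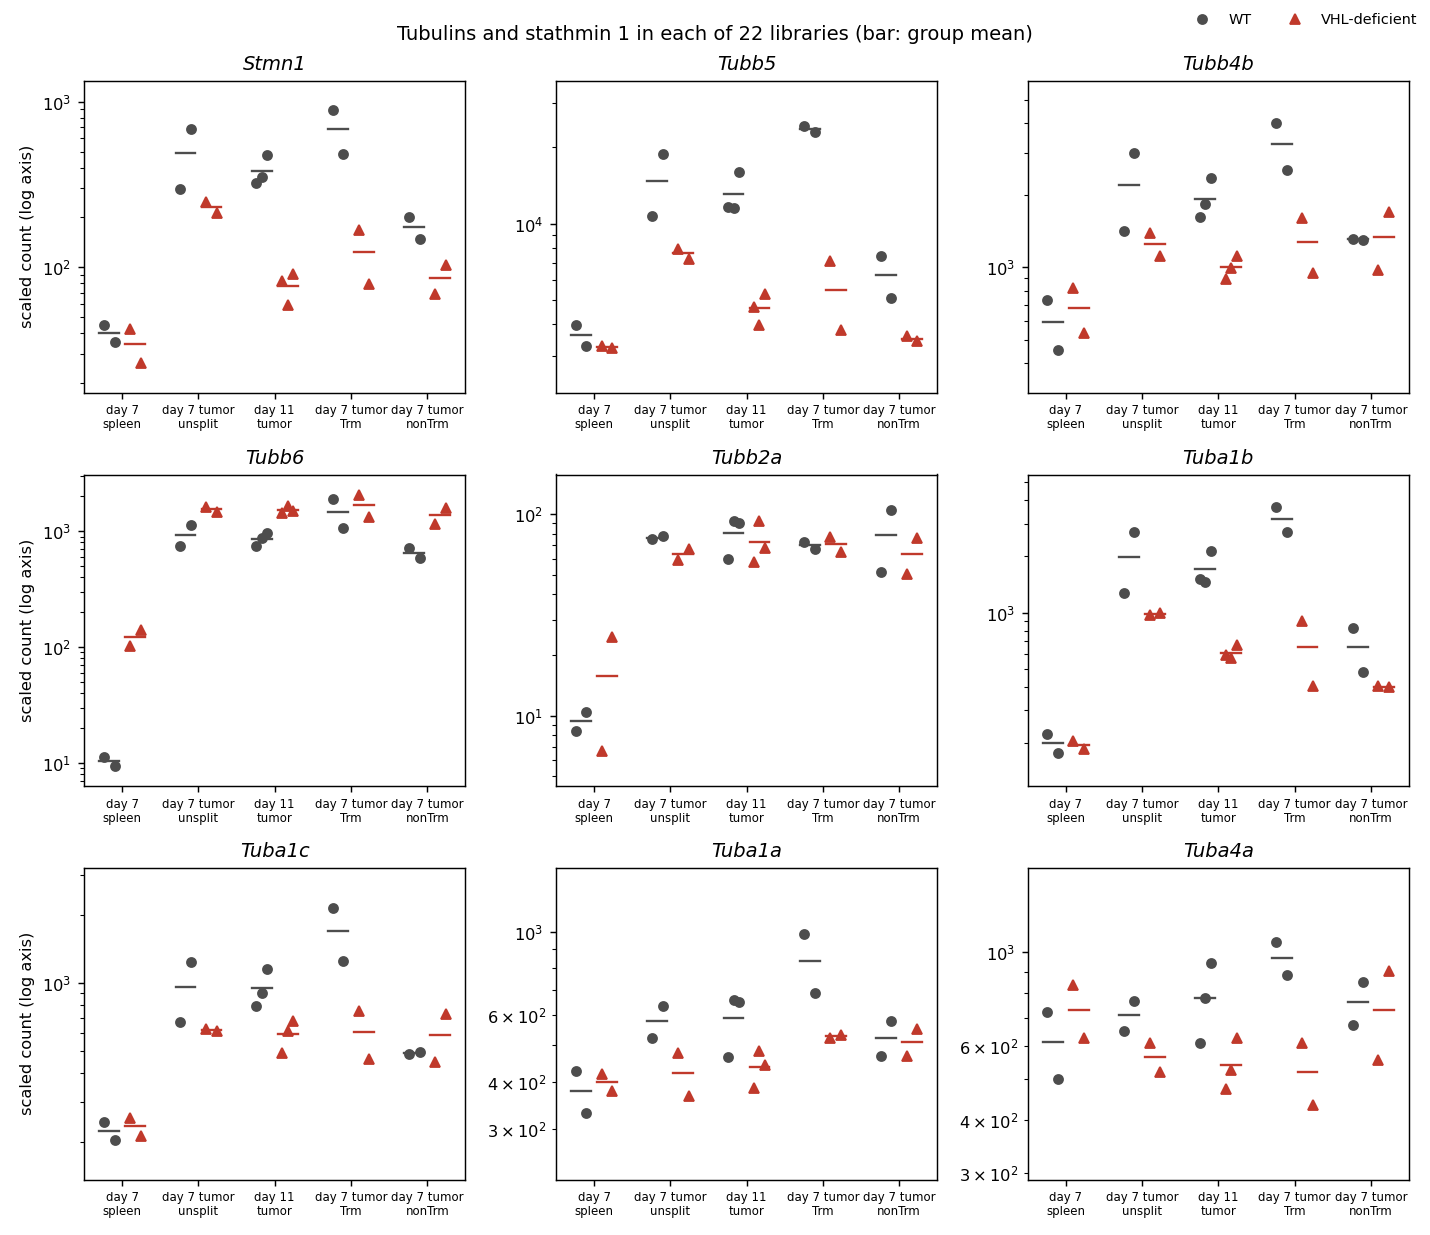
Scaled counts (log axis) of the 9 genes in each of the 22 libraries, by setting; grey circles are WT, red triangles VHL-deficient, and bars are group means. In the tumor settings the red triangles lie below the grey circles for Stmn1 and Tubb5 and above them for Tubb6, except for Tubb6 in Trm cells, where they overlap.

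The comparison of genotypes asks what the loss of VHL goes with in each setting. In tumors on day 11, Stmn1, Tubb5 and Tuba1b were lower in VHL-deficient than in WT cells, and Tubb6 was higher. Stmn1 had 82.4, 59.2 and 90.7 scaled counts in the VHL-deficient libraries and 323, 351 and 476 in the WT libraries. Its groups did not overlap, and the means were 77.5 ± 16.4 and 383 ± 81.8 (SD, n = 3 each). The log2 difference was -2.29 (SE 0.35, adjusted p = 0.000284). This lower Stmn1 was known when the members were chosen, so its p-value is no independent support. Tubb5 had 4675, 3985 and 5274 scaled counts in VHL-deficient and 11643, 11512 and 15960 in WT libraries. Each VHL-deficient library was thus below each WT library, with a log2 difference of -1.48 (SE 0.27, adjusted p = 0.00146). Tuba1b had 593, 569 and 669 in VHL-deficient and 1517, 1463 and 2151 in WT libraries. These groups were also apart, by -1.47 on the log2 scale (SE 0.30, adjusted p = 0.00403). Tubb6 moved the other way: it had 1450, 1661 and 1488 in VHL-deficient and 742, 881 and 958 in WT libraries. The log2 difference of Tubb6 was 0.84 (SE 0.24, adjusted p = 0.0418), close to the threshold of 0.05. That call was lost with TMM scaling (adjusted p = 0.0540), with no filter (0.114), with a replicate block (0.0671), and without any 1 of the 6 day 11 libraries or either unsplit VHL-deficient library.

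Thus 1 of the 9 members rose and 3 fell on day 11, where 6.87% of all genes tested were called, 4.47% higher and 2.39% lower. The 3 include Stmn1, whose fall was known beforehand. The groups did not overlap for 6 members, and for 38.5% of all genes. The median log2 difference was -0.67 over the members and 0.07 over all genes. The other members did not pass. Tubb4b had 899, 999 and 1114 in VHL-deficient and 1621, 1840 and 2350 in WT libraries, a log2 difference of -0.94 (95% interval -1.57 to -0.30, adjusted p = 0.0680). Tuba1c differed by -0.67 (-1.24 to -0.11), Tuba4a by -0.51 (95% interval below 0), Tuba1a by -0.43 (-0.87 to 0.01) and Tubb2a by -0.15 (-0.96 to 0.66). The length score was 0.27 to 0.38 in the VHL-deficient and -0.41 to -0.02 in the WT day 11 libraries. With that score as a covariate, the differences were -1.99 for Stmn1, -1.37 for Tubb5, -1.29 for Tuba1b and 1.02 for Tubb6, and all 4 passed. The score was built from these same values and did not overlap between the day 11 genotypes. The slope of that fit comes from differences within groups, so the fit cannot tell the score apart from genotype on day 11. Mitochondrial genes took 2.89% to 3.32% of reads in VHL-deficient and 8.13% to 10.01% in WT day 11 libraries, and their part in the result was not tested. With size factors that leave out ribosomal and mitochondrial genes, the differences were -2.31 for Stmn1, -1.50 for Tubb5, -1.48 for Tuba1b and 0.82 for Tubb6, and all 4 passed. These factors are medians of ratios over many genes, which leaving out a few rows can hardly move. The fit is therefore no test of the part of mitochondrial genes.

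In Trm cells the genotypes differed in Stmn1 and in 4 tubulins. Of the 9 members, 5 fell and 0 rose. Stmn1 had 169 and 79.2 scaled counts in VHL-deficient and 888 and 484 in WT Trm libraries, a log2 difference of -2.49 (SE 0.43, adjusted p = 0.000939). Tubb5 had 7142 and 3784 against 24363 and 22899, a difference of -2.18 (SE 0.33, adjusted p = 0.000263). Tuba1b had 903 and 403 against 3667 and 2707, a difference of -2.38 (SE 0.36, adjusted p = 0.000322). In each of these genes both VHL-deficient libraries were below both WT libraries. Tuba1c differed by -1.47 (adjusted p = 0.00778), with 754 and 464 against 2140 and 1255. Tubb4b differed by -1.37 (adjusted p = 0.0227), with 1612 and 944 against 3993 and 2560. The calls of Tuba1c and Tubb4b were lost without Trm VHL-deficient replicate 2 or Trm WT replicate 1, and that of Tubb4b also without the 4 libraries low in long messages, with no filter, or when the fit held only the Trm groups. For Tuba4a (-0.91, adjusted p = 0.0523) and Tuba1a (-0.64) the intervals lay below 0, but neither passed after adjustment. Tubb2a (0.02, interval -0.98 to 1.02) and Tubb6 (0.22, interval -0.40 to 0.85) showed no detectable difference. Of all genes, 10.1% were called here, 5.03% lower, and groups did not overlap for 53.5%. Trm WT replicate 1 is among the 4 libraries low in long messages. Without those 4, which leaves a lone WT Trm library, the differences were -2.06 for Stmn1, -2.14 for Tubb5 and -2.16 for Tuba1b. Mitochondrial genes took 4.23% and 5.57% of reads in VHL-deficient and 11.6% and 12.1% in WT Trm libraries, and their part was not tested. With size factors that leave out these and ribosomal genes, Stmn1 differed by -2.53, Tubb5 by -2.22 and Tuba1b by -2.42, each called. As on day 11, this fit is no test of the part of mitochondrial genes. The mitochondrial share was also lower in each VHL-deficient than in each WT library in unsplit, nonTrm and spleen cells.

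In unsplit tumor cells on day 7 no member passed, and voom also called 0. An unadjusted p under 0.05 was found for 4 members and for 1952 of all 14327 genes. Of all genes, 1.91% were called. In VHL-deficient cells 8 members were lower and Tubb6 was higher, and in all 9 the groups did not overlap, as for 49.1% of all genes. Stmn1 had 249 and 213 in VHL-deficient and 296 and 682 in WT libraries, a log2 difference of -0.96 (interval -1.85 to -0.07, adjusted p = 0.328). Tubb5 differed by -0.90 (-1.58 to -0.22, adjusted p = 0.207), Tuba1b by -0.92 (-1.68 to -0.16, adjusted p = 0.259) and Tubb6 by 0.76 (0.13 to 1.38, adjusted p = 0.258). Unsplit WT replicate 2, the higher WT library for these genes, is 1 of the 4 libraries low in long messages. Without these, which leaves a lone WT unsplit library, the differences were -0.36 for Stmn1, -0.49 for Tubb5, -0.37 for Tuba1b and 1.06 for Tubb6.

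In nonTrm cells no member passed either, and voom called 0. An unadjusted p under 0.05 was found for 3 members and for 2199 of all 14327 genes. Of all genes, 2.32% were called, and groups did not overlap for 34.0%. Tubb6 had 1164 and 1577 in VHL-deficient and 715 and 589 in WT libraries, a difference of 1.06 (0.44 to 1.68, adjusted p = 0.0671). Stmn1 had 69.1 and 104 against 200.2 and 149, a difference of -1.02 (-1.91 to -0.13), and Tubb5 had 3597 and 3435 against 7447 and 5075, a difference of -0.81 (-1.49 to -0.13). Groups were apart for 4 of the 9 members. Replicate 2 of each genotype is among the 4 libraries low in long messages. Without these, which leaves 1 nonTrm library per genotype, the differences were 0.70 for Tubb6, -1.52 for Stmn1 and -1.05 for Tubb5, none of them called.

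**Figure D2:**
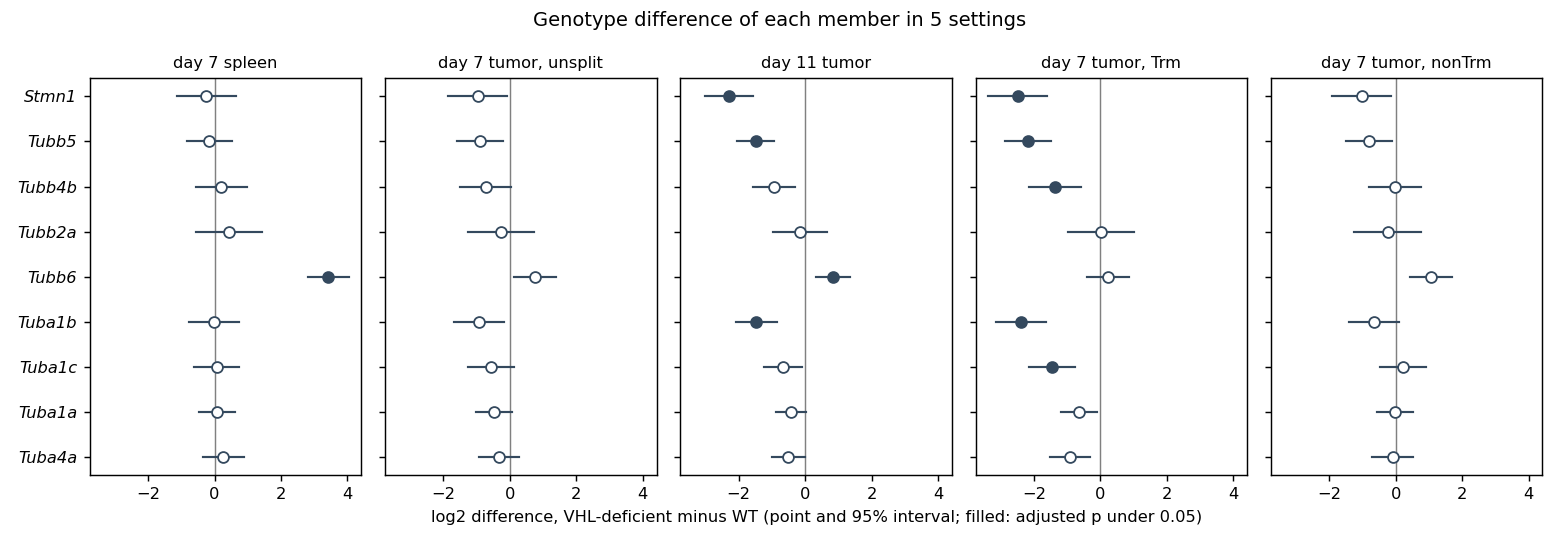
Log2 difference of each gene, VHL-deficient minus WT, with its 95% interval, in 5 settings; filled points had an adjusted p under 0.05. The 9 filled points in tumor settings are Stmn1, Tubb5 and Tuba1b in day 11 and Trm cells, Tubb4b and Tuba1c in Trm cells, and Tubb6 in day 11 cells; in spleen Tubb6 alone is filled, at 3.42.

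In spleen, Tubb6 was the member that differed between genotypes. It had 103 and 139 scaled counts in VHL-deficient and 11.1 and 9.43 in WT libraries, a log2 difference of 3.42 (SE 0.30, adjusted p = 2.37e-07). The WT libraries held 8 and 9 Tubb6 reads, and the same WT spleen libraries enter the tissue difference for which Tubb6 was listed, so the 2 are not independent. The call held under all 11 alternatives and with each of the 22 libraries left out. These fits reuse the same data and do not undo the choice of Tubb6. None of the other 8 members passed in spleen. Their differences ran from -0.25 (Stmn1, -1.14 to 0.64) to 0.44 (Tubb2a, -0.56 to 1.44), with Tubb5 at -0.15 (-0.83 to 0.53) and Tuba1b at -0.02 (-0.78 to 0.74). Of all genes, 3.18% were called in spleen, 2.44% higher, and groups did not overlap for 43.6%.

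By tissue, Tubb6 had the widest range of the 9. Unsplit WT tumor cells had 744 and 1126 scaled counts, a mean of 935 ± 271 (SD, n = 2), against 10.3 ± 1.2 in WT spleen, a ratio of 91.0. VHL-deficient cells had 1549 ± 103 in tumor and 121 ± 25.9 in spleen (n = 2 each), a ratio of 12.8. Ordered by group mean, Tubb6 was 1695 in VHL-deficient Trm, 1549 in VHL-deficient unsplit, 1533 in VHL-deficient day 11, 1478 in WT Trm and 1370 in VHL-deficient nonTrm cells. Neighbours in this order overlapped in their libraries. Next came WT unsplit (935), whose libraries lay below those of VHL-deficient nonTrm cells but overlapped those of WT Trm cells, and WT day 11 cells (861), which overlapped WT unsplit cells, then WT nonTrm (652), VHL-deficient spleen (121) and WT spleen cells (10.3), each apart from the group above it. The log2 genotype difference of Tubb6 was 2.67 smaller in unsplit tumor than in spleen. These tissue values chose the gene and are a description. The order also runs across plate columns, which differed between Trm and nonTrm, spleen and unsplit, and day 11 libraries.

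The other members could be tested between tissues. In WT cells 6 of these 8 rose in unsplit tumor over spleen, where 21.5% of all genes were called, 13.2% higher. Stmn1 had 296 and 682 scaled counts in tumor and 44.5 and 35.6 in spleen, a log2 difference of 3.46 (SE 0.43, adjusted p = 8.49e-06). Tuba1b rose by 3.22 (adjusted p = 2.82e-06), from 224 and 176 in spleen to 1268 and 2721 in tumor. Tubb2a, an isotype best known from neurons, rose by 2.90 (adjusted p = 0.000207), from 8.35 and 10.5 to 75.3 and 77.6. Its level was low in each group. Tuba1c rose by 2.03, Tubb5 by 1.97 and Tubb4b by 1.85. Tuba1a (0.62, 0.08 to 1.16, adjusted p = 0.0952) and Tuba4a (0.23, -0.38 to 0.84) did not pass. The 4 libraries low in long messages include unsplit WT replicate 2. Without them, which leaves a lone WT unsplit library, Stmn1 differed by 2.86 and Tuba1b by 2.67. In VHL-deficient cells 5 of the 8 rose, with 15.4% of all genes called, 9.98% higher: Stmn1 by 2.75, Tuba1b by 2.32, Tubb2a by 2.19, Tuba1c by 1.42 and Tubb5 by 1.22. Tubb4b (0.91, adjusted p = 0.107), Tuba1a (0.07) and Tuba4a (-0.36) did not pass. The Tubb5 call was lost without any 1 of its 4 libraries, that of Tuba1c without spleen VHL-deficient replicate 2 or unsplit VHL-deficient replicate 1, and that of Tubb2a without spleen VHL-deficient replicate 1. The test of whether the tissue difference depended on genotype called none of the 8 and 0.0698% of all genes. None of the 8 had an unadjusted p under 0.05, against 1377 of all 14327 genes.

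Within tumors on day 7, 3 tubulins were higher in WT Trm than in WT nonTrm cells. Tuba1b rose by 2.32 (adjusted p = 0.0108), Tubb5 by 1.94 (adjusted p = 0.0158) and Tuba1c by 1.73 (adjusted p = 0.0303), in a comparison with 0.300% of all genes called, 0.202% higher. For Tubb5 the values were 24363 and 22899 in Trm and 7447 and 5075 in nonTrm libraries. Stmn1 differed by 1.92 (1.03 to 2.81, adjusted p = 0.0554), Tubb4b by 1.29 (adjusted p = 0.139) and Tubb6 by 1.13 (adjusted p = 0.104). Groups did not overlap for 8 of the 9 members and for 39.7% of all genes. All 3 calls were lost when the fit held only these groups, without the 4 libraries low in long messages, and without Trm WT replicate 1, Trm WT replicate 2 or nonTrm WT replicate 2. The Tuba1c call was also lost with a replicate block and without nonTrm WT replicate 1 or day 11 WT replicate 2. In VHL-deficient cells no member passed, voom called 0, and 0.00698% of all genes were called. No member had an unadjusted p under 0.05, against 1257 of all 14327 genes. There the differences were 0.59 for Tuba1b (-0.17 to 1.35), 0.56 for Tubb5 (-0.12 to 1.25) and 0.45 for Stmn1 (-0.44 to 1.33). The test of whether the subset difference depended on genotype called no member and 0 genes overall. In it 5 members and 1156 of all 14327 genes had an unadjusted p under 0.05. These members were led by Tuba1b (-1.73, adjusted p = 0.464) and Tuba1c (-1.68, adjusted p = 0.460), and voom called 0.

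Day 11 tumor cells were set against unsplit day 7 tumor cells, although the day cannot be told apart from the plate column that held the libraries. No member and no gene at all passed in either genotype. In WT cells no member had an unadjusted p under 0.05, against 484 of all 14327 genes. The difference there was -0.25 for Stmn1 (-1.06 to 0.56) and -0.14 for Tubb5 (-0.76 to 0.48). In VHL-deficient cells 2 members and 633 of all genes had an unadjusted p under 0.05. Stmn1 differed by -1.58 (-2.39 to -0.77, adjusted p = 0.784), from 249 and 213 on day 7 to 82.4, 59.2 and 90.7 on day 11, and Tubb5 by -0.72 (-1.34 to -0.10). The test of whether the genotype difference changed with the day called none, with Stmn1 at -1.33 (adjusted p = 1). Voom called 0 members in these 3 tests.

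Ordered by level, Stmn1 had its highest means in WT Trm (686), WT unsplit (489) and WT day 11 cells (383), whose libraries overlapped from neighbour to neighbour. VHL-deficient unsplit cells (231) and WT nonTrm cells (175) followed, each apart from the group above. VHL-deficient Trm cells (124) overlapped WT nonTrm cells. VHL-deficient Trm, nonTrm (86.4) and day 11 cells (77.5) overlapped in turn, and spleen cells of both genotypes (40.1 in WT, 34.4 in VHL-deficient) lay below them and overlapped each other. Trm and nonTrm, spleen and unsplit, and day 11 libraries were in different plate columns. Across these sets the order cannot be told apart from the column. Stmn1 was the most abundant stathmin in each group except VHL-deficient spleen. Stmn2 had 98 reads over all libraries, with its highest scaled count, 58.1 from 26 reads, in spleen VHL-deficient replicate 1. In spleen VHL-deficient replicate 2 it had 43.5. Stmn1 had 42.5 and 26.3 in these libraries, below Stmn2 in both. In any other library Stmn2, Stmn3 and Stmn4 together had at most 5.57. Stmn3 had 1 read and Stmn4 had 0.

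The make-up of the tubulin pool was described as each gene's share of the summed scaled counts per kilobase of its class. Tubb5 made up 74.5% of beta-tubulin message in WT day 11 cells and 54.4% in VHL-deficient ones. Tubb6 made up 6.78% (6.16% to 7.58%) in WT and 24.7% (22% to 28.0%) in VHL-deficient day 11 cells. It was 6.62% and 17.8% in unsplit, 6.39% and 23.5% in Trm, and 9.49% and 24.2% in nonTrm cells, WT first. No VHL-deficient tumor library overlapped a WT tumor library in this share. In spleen it was 0.30% in WT and 3.62% in VHL-deficient cells. The Tubb4b share stayed between 16.6% and 27.3% in all 10 groups. Summed beta-tubulin message was 5259 per kilobase in WT and 2562 in VHL-deficient day 11 cells, and 9331 and 3011 in Trm cells, so on day 11 the larger Tubb6 share went with less Tubb5 as well as with more Tubb6. These shares are built from the counts tested above and add no separate test.

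The alpha-tubulin pool shifted between Tuba1b and the less variable isotypes. In spleen, Tuba1a (36.2% in WT, 35.4% in VHL-deficient) and Tuba4a (28.3% and 31.4%), an isotype abundant in platelets and muscle, made up most of it, and Tuba1b 18.4% and 16.7%. In WT tumor cells Tuba1b made up 51.8% in unsplit, 48.4% in day 11, 53.6% in Trm and 32.2% in nonTrm cells. In VHL-deficient tumor cells it was 44.0%, 33.2%, 31.7% and 22.6% in the same order. Summed alpha-tubulin message was 3183 per kilobase in WT Trm cells and 581 in WT spleen. The near-identity of Tuba1a, Tuba1b and Tuba1c limits these shares.

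**Figure D3:**
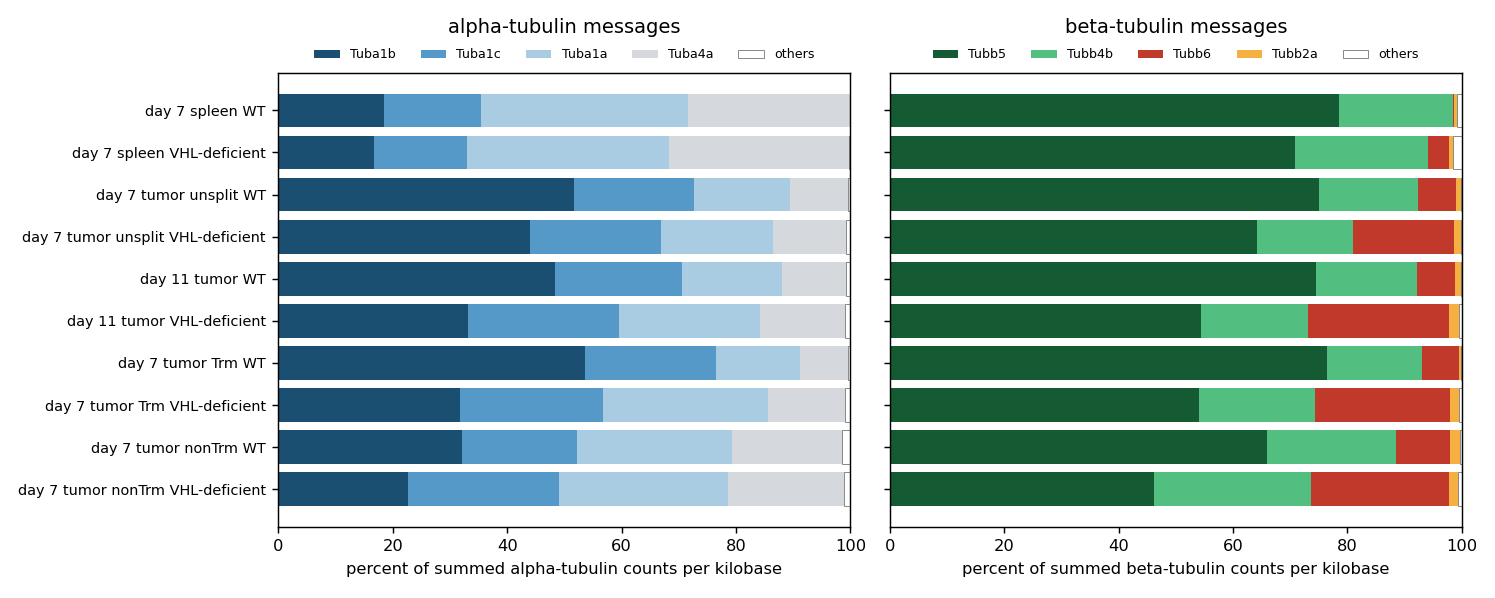
Mean share of each gene in the summed scaled counts per kilobase of alpha-tubulins (left) and beta-tubulins (right) in the 10 groups, in percent. The red Tubb6 segment is 17.8% to 24.7% in VHL-deficient tumor groups, 6.39% to 9.49% in WT tumor groups, 3.62% in VHL-deficient spleen and 0.30% in WT spleen.

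Cell cycle messages were also lower where Stmn1, Tubb5 and Tuba1b fell. Of 25 proliferation genes, 18 fell and 0 rose in VHL-deficient day 11 cells, with a list median of -1.90 against 0.07 for all genes. Mki67 differed by -1.84 (356 against 1270 scaled counts), Tyms, which makes thymidylate for DNA, by -1.90, Ccne1 (cyclin E1) by -2.09 and Top2a (topoisomerase II alpha) by -1.70. The summed level of the list was 8531 to 11214 in VHL-deficient and 24506 to 28785 in WT day 11 libraries. In Trm cells 19 of the 25 fell, and the sums were 7642 to 15277 and 30999 to 39730. In unsplit cells none passed, and the sums were 20803 to 21780 and 29106 to 36781. In nonTrm cells 1 fell. WT tumor cells had 24 of the 25 higher than WT spleen, and VHL-deficient tumor cells 23. The part of these proliferation messages in the tubulin and stathmin results was not tested. In bulk samples, fewer cells of a type and less RNA per cell cannot be told apart.

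Across the 10 group means of log2 levels, Pearson's r with Mki67 was 0.97 for Tubb5 and 0.96 for Stmn1, but 0.47 for Tubb6 and 0.42 for Tuba4a. With Actb, of the actin list, r was 0.93 for Tubb5, 0.91 for Stmn1, 0.50 for Tubb6 and 0.64 for Tuba4a. High r was thus not particular to Mki67. Among the members, r was 0.98 between Tuba1b and Stmn1, 0.93 between Tubb2a and Tubb6, and 0.43 between Tubb5 and Tubb6. These values describe 10 groups that share tissues, plate columns and genotypes. The 5 other genes whose group means most resembled Stmn1 were Cdca8, Rfc2, Cenpu, Aurkb and Cdca3, with r from 0.998 down to 0.991. Those for Tubb5 were Tyms, Asf1b, Rfc5, Tcf19 and Pold2 (0.991 to 0.983). Those for Tubb6 were Il1r2, Slc15a3, Tnfrsf9, Bhlhe40 and Smim3 (0.997 to 0.983). The group means of Tubb6 hold the tissue difference for which it was listed. Each r of Tubb6, also that with Tubb2a, reuses that difference and is a description. Cdca8 and Aurkb encode parts of the chromosomal passenger complex, Cenpu a kinetochore protein, and Rfc2 and Rfc5 parts of the clamp loader of DNA replication. Il1r2 encodes an interleukin 1 decoy receptor, Tnfrsf9 the costimulatory receptor 4-1BB, and Bhlhe40 a transcription factor of activated T cells. Slc15a3 reached a highest group mean of only 28.4.

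**Figure D4:**
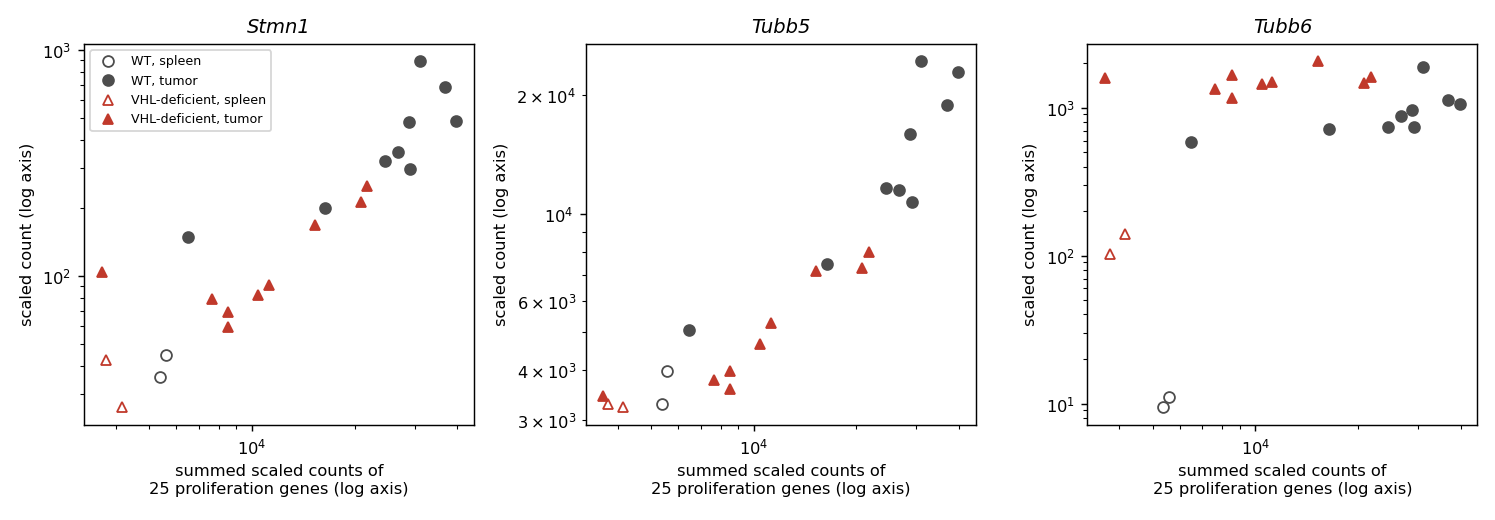
Scaled counts of Stmn1, Tubb5 and Tubb6 (log axis) in the 22 libraries against the summed scaled counts of the 25 proliferation genes (log axis); circles are WT, triangles VHL-deficient, open symbols spleen and filled symbols tumor. Stmn1 and Tubb5 are mostly higher where the proliferation sum is higher, in both genotypes, while the filled Tubb6 symbols lie between 589 and 2060 over the whole axis, with spleen far below.

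Other genes of the microtubule system were read from lists fixed by name. Of 11 mitotic kinesins and spindle motors, 7 fell and 0 rose in VHL-deficient day 11 cells, with a list median of -1.63. Cenpe, the kinetochore kinesin, had 110 ± 14.7 in VHL-deficient and 454 ± 48.2 in WT libraries (SD, n = 3 each), a difference of -2.04. Kif22, which pushes chromosome arms, differed by -2.06, Kif23, a motor of the central spindle, by -1.63 and Kif20b by -1.37. In Trm cells 7 of the 11 fell as well, in spleen and in nonTrm cells 1, and in unsplit cells none. In WT tumor over WT spleen 9 rose, among them Cenpe by 4.74, Kif4 by 4.21 and Kif15 by 4.03.

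Of 18 genes of the gamma-tubulin ring complex, augmin and related factors, 3 fell on day 11: Haus4 (184 against 470 scaled counts) by -1.34 and Haus7 by -1.26, both subunits of augmin, and Tpx2, a spindle assembly factor, by -1.91. The list median was -0.37. Gamma-tubulin itself, Tubg1, fell by 1.49, from 214 ± 16.8 in WT to 77.0 ± 16.7 in VHL-deficient cells (SD, n = 3 each), the only one of 7 other tubulins tested to do so; the median of these 7 was -1.21. Tube1, epsilon-tubulin of centrioles, was 3.11 higher in WT tumor than in WT spleen. Of 19 proteins that bind and stabilise microtubules 3 fell, namely Nusap1 (-2.22), Tacc3 (-1.93) and Prc1 (-1.66), which act on the spindle, and the list median was -0.01. Of 10 depolymerising and severing proteins Kif2c, a kinesin that shortens microtubule ends, was the one that fell (-2.30), with a list median of -0.34. None of 15 tubulin modifying enzymes was called on day 11, where Sirt2, a tubulin deacetylase, differed by 0.15 and Tpgs1 by -0.32. The autoregulation factor Ttc5 had 295 scaled counts in VHL-deficient and 328 in WT day 11 cells, a difference of -0.15 (adjusted p = 0.685).

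Of 22 genes of the chaperonin CCT, prefoldin and the tubulin cofactors, which fold tubulin and join its dimers, 1 fell on day 11 (Cct7, -0.74, from 3514 in WT to 2082 in VHL-deficient cells), against 7 in Trm and 2 in nonTrm cells. The 7, named after their values were seen, were all CCT subunits: Tcp1, Cct2, Cct3, Cct4, Cct5, Cct7 and Cct8. The list median was -0.28 on day 11 and -0.75 in Trm cells. In WT tumor over spleen 9 of the 22 rose and 1 fell (Tbcel, named after its value was seen), with Cct7 up by 1.38 and Tcp1 by 1.32; in VHL-deficient cells Tcp1 alone rose. Of 14 genes of actin and other cytoskeleton, by comparison, Lmnb1, a nuclear lamin, was the one that fell on day 11 (-1.36), and in WT tumor 5 rose over spleen, including Actg1, cytoplasmic gamma-actin, by 2.03 and the actin-capping Capg by 2.44.

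Messages on the lists of other cell types also differed between some groups. The 8-gene dendritic cell list summed to 1878 to 2264 in VHL-deficient and 304 to 666 in WT day 11 libraries. H2-Ab1 averaged 1574 of it in VHL-deficient and 126 in WT libraries, and H2-Aa 5.62 and 79.6. In the same order, Xcr1 averaged 194 and 61.6, Zbtb46 159 and 86.7, and Itgax 172 and 166. Clec9a, Siglech and Flt3, also on that list, averaged under 1. H2-Ab1 was not particular to day 11. It was also higher in VHL-deficient than in WT spleen (486 against 3.31) and unsplit cells (1698 against 37.6). The same held in Trm (1966 against 157) and nonTrm cells (2761 against 59.4). In day 11 libraries, VHL-deficient first, the 10-gene macrophage and monocyte list summed to 49.9 to 69.4 and 100.3 to 131. The 6-gene B cell list, mostly Ighm, summed to 76.1 to 135 and 311 to 591. The 8-gene neutrophil list reached 827 in day 11 WT replicate 2, against at most 152 in any other library. The part of these messages in the results above was not tested. Without day 11 WT replicate 2, Stmn1, Tubb5 and Tuba1b were still called on day 11.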

How the data were processed

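The authors deposited 1 table of a normalised signal per gene and library. Per the submitters' processing notes, reads were processed with STAR, featureCounts and DESeq on mm10, without versions. Per the labels' protocols, cells were lysed in TCL buffer as they were sorted, RNA was captured with RNAClean XP beads, and the PrepX kit was used for the libraries. Each deposited signal minus 1 was a whole number of reads divided by 1 size factor per library (100% of values, tolerance 0.01 reads, largest deviation 0.00106). The 1 was removed to give scaled counts.

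The 14327 genes with 10 scaled counts or more in 2 or more libraries were tested by limma 3.58.1 (R 4.3.3, eBayes with a trend) on log2(scaled count + 1). A single fit held the means of the 10 groups over the 22 libraries, with 12 residual degrees of freedom. Fold changes are on that scale and understate those of low genes. There were 14 two-sided comparisons, each Benjamini-Hochberg adjusted over all genes tested, called at an adjusted p under 0.05. The p-values measure the spread between pools of 5 mice. The fit was tested on simulated data. Tables and figures used Python 3.11.15, pandas 2.3.3 and matplotlib 3.10.9.

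The 9 members and all gene lists were chosen with earlier results of these data known, including the lower Stmn1 in VHL-deficient day 11 cells and the tissue difference of Tubb6, so none of these is independent support. Up to 4 called genes with the smallest adjusted p are named per list, or 2 with the highest level, for genotype in day 11 and unsplit tumor and for tissue. Named by likeness are the 5 genes with the highest r over group means. Alternatives were other scalings, filters and pseudocounts, a replicate block, leaving out each library, and fits restricted to the groups of a comparison; voom, the length score as a covariate, leaving out the 4 libraries lowest in long messages and a crossed block were chosen after seeing the data. Plate column 1 held Trm and nonTrm, column 2 spleen and unsplit, and column 3 day 11 libraries.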

Additional observations from a re-analysis of the deposited data

How the results depend on the processing

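The settings were 11 alternatives and 22 fits that each left out 1 library. Of the 24 calls of a member, 15 held in all of them, among them Stmn1, Tubb5 and Tuba1b in day 11 and Trm genotype and Tubb6 in spleen, and none changed sign. All settings reuse the same data, so they do not undo the choice of members with earlier results known. The number of members called moved with the setting. For genotype on day 11 it was 4, but 7 in a fit restricted to its own groups, 3 with no filter or a replicate block, and 4 to 6 in the other alternatives. For genotype in Trm cells it was 5, and 4 to 6 in the alternatives, where Tuba4a was the one gained. For unsplit day 7 tumor it was 1 rather than 0 with the length score as a covariate, and for nonTrm cells 2 rather than 0 with that covariate. For Trm against nonTrm in WT it was 3, but 0 in a fit restricted to its own groups, 6 with the covariate, 2 with a replicate block and 0 without the 4 libraries lowest in long messages. For tumor against spleen in VHL-deficient cells it was 5, and 5 or 6 in the alternatives. For day 11 against day 7 in VHL-deficient cells it was 0, but 3 in a fit restricted to its own groups and 1 with the covariate. With 1 library left out, the number ranged from 3 to 5 for genotype on day 11, 3 to 6 in Trm, 0 to 1 in nonTrm, 0 to 5 for Trm against nonTrm in WT, 3 to 5 for tumor against spleen in VHL-deficient cells and 0 to 2 for the dependence of the subset difference on genotype. It stayed at 0 in unsplit tumor, 1 in spleen, 6 for tumor against spleen in WT and 0 in the other 5 comparisons. A leave-out from a group of 2 leaves a lone library, which is assumed to vary like the other groups. The causes of these changes were not tested, beyond the fewer samples in some fits.

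Replicate numbers were not taken to pair the samples, since no label says that a number marks a shared litter, batch or day. Same-numbered libraries' deviations correlated at 0.04 to 0.10 for genotype on day 11, with 3 pairs. With 2 pairs each they correlated at 0.03 for genotype in unsplit tumor, 0.12 in spleen, 0.24 in Trm and 0.27 in nonTrm cells, and at -0.15 in WT and -0.18 in VHL-deficient cells for Trm against nonTrm. With a replicate block, 3 members were called for genotype on day 11, 2 for Trm against nonTrm in WT, and otherwise the same number as without it. With crossed numbers, chosen after seeing the data, 16 genes and 2 members were called for Trm against nonTrm in WT, and 1 gene and 0 members in VHL-deficient cells. The planned edgeR quasi-likelihood fit was not run, and voom on recovered reads took its place. Depth limits Tubb6 in WT spleen and Tubb2a in spleen, where a library held as few as 8 and 3 reads.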
